A study of Mus musculus with 9 samples.

Results

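The genes described here are the T cell coreceptor genes Cd4, Cd8a and Cd8b1 together with 5 genes known from double-positive thymocytes, Cd1d1, Arpp21, Aqp11, Ets2 and Cd24a. They were read on the Illumina MouseWG-6 v2.0 array, on which beads carrying 1 probe each bind labelled RNA. All probes that the platform annotation gives to one of these 8 symbols were taken, which made 21 of the 45281 probes on the array, for 8 of its 19057 annotated genes. Cd4, Cd8a and Aqp11 have 2 probes each, Cd8b1 has 3, Arpp21 has 9, and Cd1d1, Ets2 and Cd24a have 1 each. The 9 arrays comprise 3 of wild-type thymus, 3 of thymus labelled Lmo2 transgenic and 3 of T cell leukaemia lines derived from mice with the transgene. The strain is C57BL/6 throughout. The transgene places Lmo2 under the CD2 promoter, which acts in the T lineage, and the lines therefore come from animals that carried it too. The lines are numbered 3, 175 and 261 in the labels, and each is 1 array. No age is stated in the labels used here, nor whether thymocytes were sorted or pooled. The thymus titles carry different numbers, but nothing states that these are separate animals, so p-values measure the spread between arrays, which may be technical.

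Thymocytes pass from a double-negative stage without CD4 or CD8 to a double-positive stage with both, and then keep 1 coreceptor as CD4 or CD8 single-positive cells. CD4 binds MHC class II and CD8 binds MHC class I, and both carry the kinase LCK to the T cell receptor. CD8 in conventional T cells is a pair of an alpha chain (Cd8a) and a beta chain (Cd8b1), and the beta chain reaches the cell surface only with the alpha chain. Double-positive cells also display CD1D, which presents lipids to developing NKT cells, and the surface glycoprotein CD24, which is lost as thymocytes mature. ARPP21 is an RNA-binding phosphoprotein found in brain and in immature thymocytes, AQP11 is a water channel of intracellular membranes, and ETS2 is a transcription factor of the ETS family.

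Arpp21 has a further product. By the RefSeq tables of GRCm38.p6, the microRNA gene Mir128-2 lies within Arpp21 on the same strand, and the table lists 2 mature products for it. The 3p product is shown, since a second gene encodes it too, with the seed (bases 2 to 8) in capitals. It stands at chr9:112118644-112118664 on the minus strand, and Mir128-1 on another chromosome encodes the same 21 bases. The level of either product is not analysed here.
mmu-miR-128-3p: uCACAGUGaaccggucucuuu

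Arpp21, Aqp11 and Ets2 are the 3 genes with a probe that read at least 2 log2 units lower in line 3 than in both other lines, so the 250 bases before their starts are shown, from RefSeq on GRCm38.p6 and 5′ to 3′ on the gene's strand. Of the 8 genes, 4 have an entry in that table, Cd8a, Arpp21, Aqp11 and Ets2. The Arpp21 window is the farthest upstream of 9 listed starts, at chr9:112233723-112233972 on the minus strand. The Aqp11 window is chr7:97738248-97738497 on the minus strand and the Ets2 window chr16:95702157-95702406 on the plus strand. Capitals mark matches, on either strand, to an E-box (CAGNTG), a RUNX motif (TGTGGT), an ETS motif (CCGGAA) or a GATA motif (AGATAA), and no matches overlapped.
Arpp21: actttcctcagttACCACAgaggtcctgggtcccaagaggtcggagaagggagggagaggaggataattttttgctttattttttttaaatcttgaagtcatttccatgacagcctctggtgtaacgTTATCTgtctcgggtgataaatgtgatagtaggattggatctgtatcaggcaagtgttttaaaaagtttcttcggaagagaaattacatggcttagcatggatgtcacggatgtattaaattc
Aqp11: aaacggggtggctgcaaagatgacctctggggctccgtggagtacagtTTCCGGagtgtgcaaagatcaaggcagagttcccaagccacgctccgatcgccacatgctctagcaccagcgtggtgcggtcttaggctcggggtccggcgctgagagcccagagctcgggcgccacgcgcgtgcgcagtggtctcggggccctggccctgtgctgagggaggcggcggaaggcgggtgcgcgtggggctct
Ets2: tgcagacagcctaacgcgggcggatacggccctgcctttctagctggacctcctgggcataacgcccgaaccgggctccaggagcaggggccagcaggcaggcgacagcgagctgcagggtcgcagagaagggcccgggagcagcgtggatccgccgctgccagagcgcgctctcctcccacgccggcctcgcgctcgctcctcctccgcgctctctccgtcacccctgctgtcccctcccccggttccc
The Arpp21 window holds 1 RUNX and 1 GATA match and the Aqp11 window 1 ETS match, while the Ets2 window holds 0 matches to these letters, as does that of Cd8a. Over 32851 windows of the same length, 44.8% hold the E-box letters, 14% the RUNX letters, 12% the ETS letters and 9.99% the GATA letters. The G and C content was 40.4% for Arpp21, 67.2% for Aqp11 and 71.6% for Ets2.

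Values are log2 intensities after background correction and quantile normalization, in which undetected probes have a median near 4.5 on every array. A probe counts as detected on an array where its detection p-value is under 0.05. Between 35.0% and 43.0% of all probes were detected per array, with the lines at the low end, and the number of arrays limits the precision. The Lmo2 probe went against the label: it read 7.95, 8.0 and 8.21 in wild type, while the labelled transgenic readings were 6.95, 6.22 and 5.42, and it was detected in none of the lines. Its difference between the thymus groups was not called (-1.86 log2, limma adjusted p = 0.0531), and the group is called labelled transgenic for this reason. Whether the Lmo2 probe reads the transcript of the transgene was not tested. By probe ILMN_2475156, Xist, which coats the inactive X, was at 12.66 and 11.37 on arrays 1 and 2 of labelled transgenic thymus and undetected on the other thymus arrays (4.38 to 4.49). By probe ILMN_1241001, the Y-linked gene Eif2s3y was undetected on those same arrays 1 and 2 (4.35 and 4.48). It read 9.44 to 10.12 on the other thymus arrays. The thymus groups were thus not balanced on these sex-linked genes. Markers of other cells differed between the groups too. Of all tested probes 1.45% fell on the labelled transgenic arrays and 13.9% in the lines against wild type. Of 8 tested NK and cytotoxic markers 6 fell on the labelled transgenic arrays and all 8 fell in the lines against wild type. The summed level of that list, the sum of linear intensities without the offset, was 10790 to 11840 in wild type, 2721 to 5379 in labelled transgenic thymus and 381.7 to 458.2 in the lines, while Ncr1, Gzmb and Eomes of the same list were not detected on enough arrays to be tested. Plasmacytoid dendritic cell markers, of which 2 of 6 fell on the labelled transgenic arrays, summed to 7884 to 9396, 2585 to 6665 and 2255 to 7497 in the same order. Members of that list moved in opposite directions in the lines against wild type: Cox6a2 rose by 4.35 log2 units to 10.17, 12.09 and 12.51, Tcf4 and Ly6d fell, and Siglech fell and was detected in no line. B cell markers summed to 1517 to 2432, 339.2 to 1342 and 70.12 to 98.09, with 3 of 5 down in the lines. All 8 tested macrophage and granulocyte markers fell in the lines against wild type, and their sums were 4370 to 7502, 3636 to 14220 and 57.52 to 65.45. Gamma delta T cell markers summed to 11510 to 12640, 4602 to 37530 and 42.3 to 327.5, with Sox13 up by 1.78 in labelled transgenic thymus and 4 of 5 down in the lines. The part of these shifts in the results below was not tested.

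A probe was tested where it was detected on at least 3 of the 9 arrays. This held for 15 of the 21 probes, from 7 of the 8 genes. Those left out were both Cd8a probes, 1 of Cd4 and 3 of Arpp21. A probe enters partly through the group where it is high, so the tested probes are not a neutral sample of the 21. Each comparison was fitted with limma over all 19490 such probes on the array, and rose and fell are used of differences with a Benjamini-Hochberg adjusted p under 0.05.

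Between wild-type and labelled transgenic thymus, 0 of the 15 probes rose and 3 fell, where 1.35% of all tested probes rose, 1.45% fell and 2.81% were called in either direction. The 3 were 2 probes of Cd8b1 and the 1 of Ets2. The probes of Arpp21, Aqp11, Cd1d1, Cd24a and Cd4 were not called. Between wild-type thymus and the lines 6 probes fell and 0 rose (13.9% and 13.7% of all tested probes, 27.6% in either direction), in Arpp21, Cd1d1, Cd24a and 1 probe of Cd8b1. Between labelled transgenic thymus and the lines 6 fell and 2 rose (8.96% and 7.36%, 16.3% in either direction), the 2 being Cd8b1 probes. The arrays of the 2 groups did not overlap for 5, 9 and 12 of the 15 probes in these comparisons, in the order given, against 19.7%, 47.5% and 42.5% of all tested probes. The comparisons share their groups, and probes of 1 gene share its RNA, so these counts are not independent. The median log2 difference of the 15 probes was 0.04, -1.11 and -1.24, beside 0.00, 0.09 and 0.08 over all tested probes. In the first comparison the count of 3 went to 1 without any 1 of the wild-type arrays. Against wild type the count of 6 in the lines went to 2 without wild-type array 2, to 1 without wild-type array 3 and to 3 without line 175. Against labelled transgenic thymus the count of 8 went to 5 without labelled transgenic array 1, to 4 without array 3 and to 5 without line 175.

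**Figure D1:**
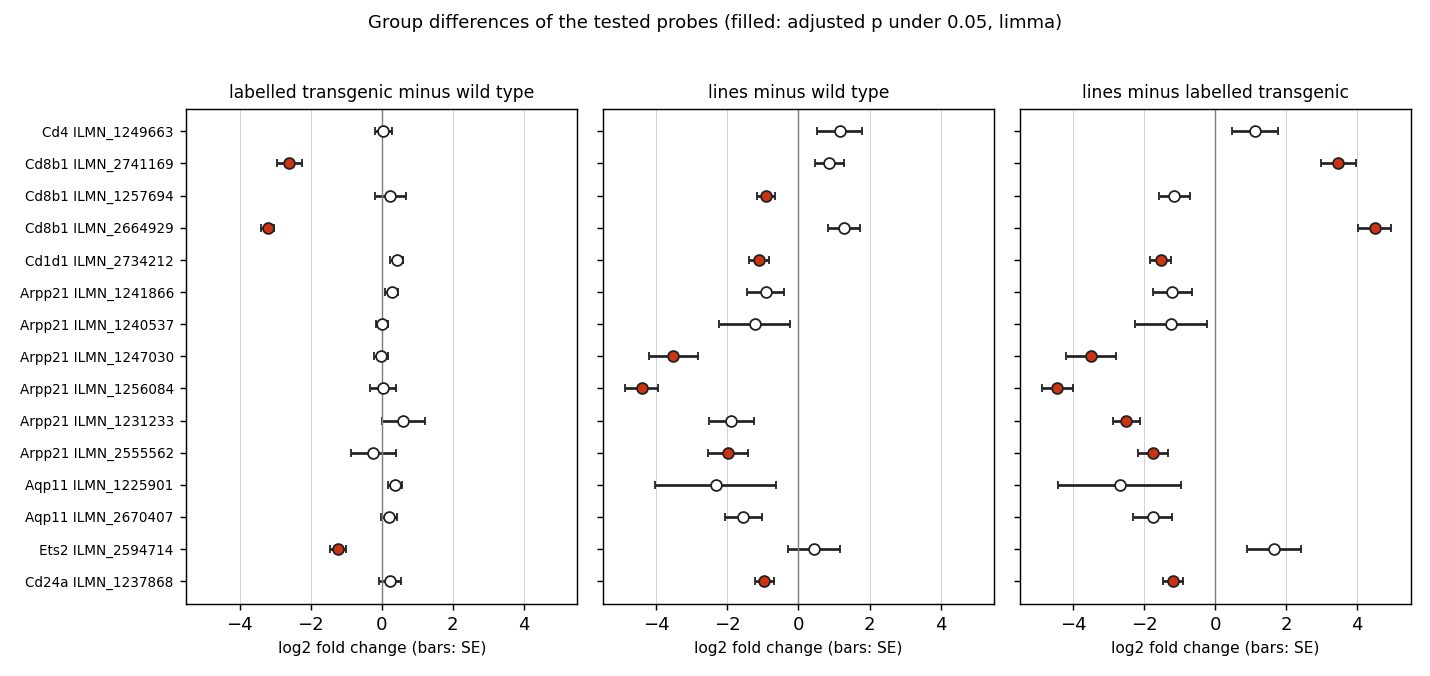
Log2 fold change (horizontal axis) of each of the 15 tested probes in the 3 comparisons, with bars for the standard error and filled points for an adjusted p under 0.05 in limma. Of the Cd8b1 probes, 2 lie at -2.61 and -3.21 on the left and at 3.47 and 4.49 on the right, and 4 Arpp21 probes lie between -4.44 and -1.75 on the right.

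Cd4 and Cd8a, which define the double-positive stage, were at or near background on the thymus arrays. Whether these probes respond to their transcripts was not tested. Some other genes of that stage were detected on every thymus array, among them Rag1 at 8.95 to 10.90, Dntt at 11.90 to 12.64 and Satb1 at 13.35 to 13.74. Others of that stage were not. Ccr9 was not detected on any array, and Bcl2l1 was undetected on labelled transgenic array 2 (4.71). Rag2 was undetected on all labelled transgenic arrays and had a mean of 5.38 in wild type, where it was detected. Probe ILMN_2935080 of Cd8a read 4.42, 4.79 and 4.71 in wild type, 4.47, 4.46 and 4.31 on labelled transgenic arrays, and 4.44, 4.45 and 4.53 in lines 3, 175 and 261. Probe ILMN_2731282 read 4.27 to 4.72 over the 9 arrays, and neither probe was detected on any. Both probes are annotated to RefSeq transcripts of Cd8a.

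Cd4 was read by probe ILMN_1249663 at 5.43, 4.86 and 4.80 in wild type, of which array 1 was detected, and at 4.92, 5.31 and 4.97 on labelled transgenic arrays, of which array 2 was detected. In the lines it read 5.32, 7.78 and 5.48 and was detected in each. Line 175 thus stood 2.30 log2 units above line 261 and was the highest array by far. The difference between lines and wild type was 1.16 ± 0.64 (SE) and was not called (adjusted p = 0.207), nor was that from labelled transgenic thymus (1.13 ± 0.64, adjusted p = 0.25). The other Cd4 probe, ILMN_1217214, annotated to a cDNA clone, was not detected on any array (4.37 to 4.95) and did not show the high reading of line 175, where it stood at 4.63.

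**Figure D2:**
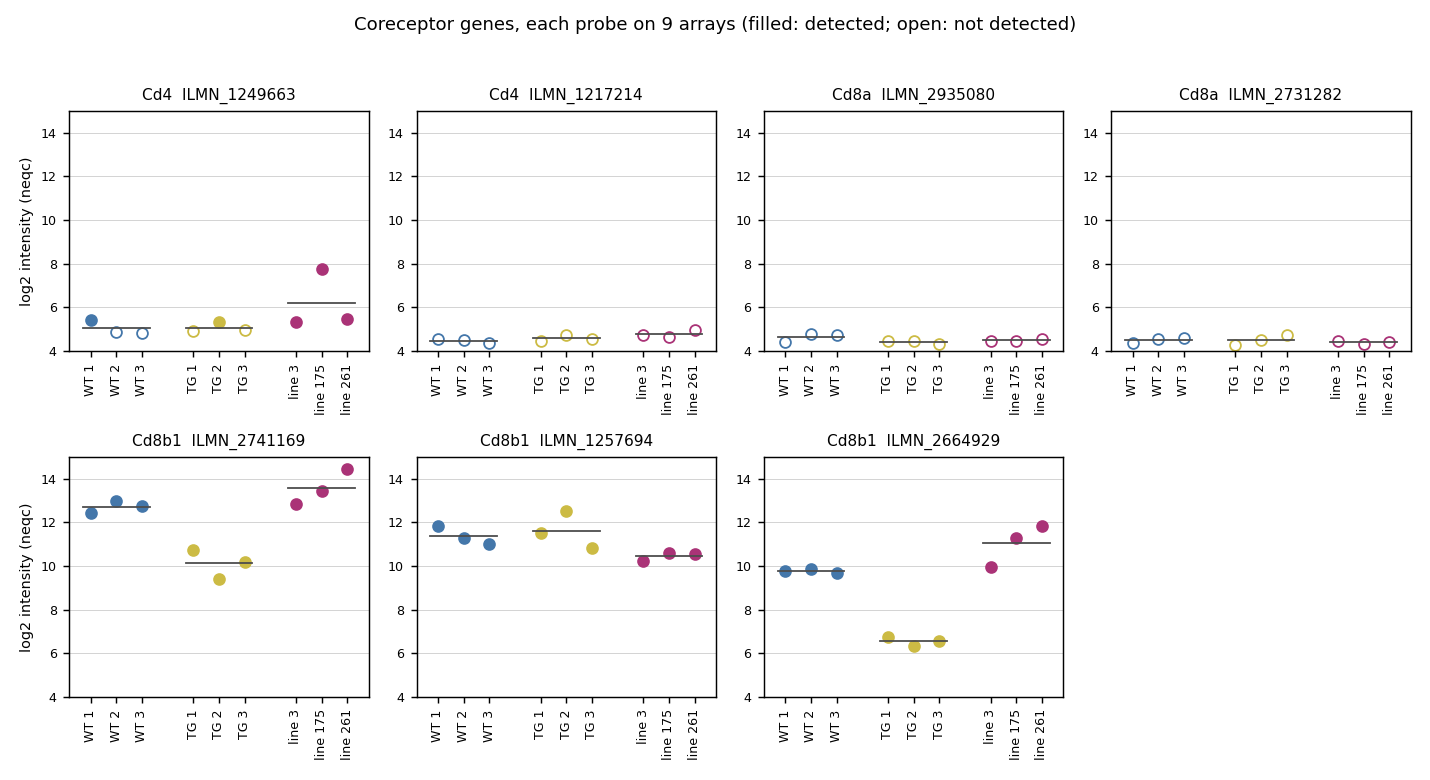
Log2 intensity (vertical axis) of the 7 coreceptor probes on each array (WT, wild type; TG, labelled transgenic; cell lines by number), with filled points for detected readings and bars for group means. The 3 Cd8b1 probes are detected throughout, 2 of them lowest on the labelled transgenic arrays (6.34 to 6.74 and 9.42 to 10.75), while both Cd8a probes have open points on all 9 arrays.

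Cd8b1, unlike its partner gene, was detected by all 3 probes on all 9 arrays, and its probes disagreed. Probe ILMN_2664929 read 9.77, 9.85 and 9.66 in wild type, 6.74, 6.34 and 6.55 on labelled transgenic arrays, and 9.96, 11.30 and 11.84 in lines 3, 175 and 261. The 3 groups did not overlap, with labelled transgenic thymus lowest and the lines highest. On this probe Cd8b1 fell by 3.21 ± 0.19 (SE) from the wild-type to the labelled transgenic arrays (adjusted p = 0.000784 in limma), and it was 4.49 ± 0.47 higher in the lines than in labelled transgenic thymus (adjusted p = 0.00277). Both calls held in each of 12 other settings (highest adjusted p = 0.0194 and 0.0169). In bulk samples fewer cells with a transcript and less of it per cell cannot be told apart.

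Probe ILMN_2741169 gave a like picture. It read 12.44, 12.99 and 12.73 in wild type, 10.75, 9.42 and 10.18 on labelled transgenic arrays, and 12.83, 13.46 and 14.47 in the lines. It fell by 2.61 ± 0.35 in labelled transgenic thymus (adjusted p = 0.0117), and this call was lost without any 1 of the wild-type arrays (adjusted p = 0.0531, 0.0792 and 0.077 without array 1, 2 or 3). The lines were 3.47 ± 0.50 above labelled transgenic thymus (adjusted p = 0.0078, held in each of 13 other settings). Against wild type the lines differed by 0.86 ± 0.41 on this probe (adjusted p = 0.157) and by 1.28 ± 0.45 on ILMN_2664929 (adjusted p = 0.0749), neither called. Without line 3, the lowest of the lines on both, the differences were 1.24 and 1.81. Line 3 was picked by its readings, so no p-value is given for them. With all 9 arrays in 1 fit the difference on ILMN_2664929 was called (adjusted p = 0.048).

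Probe ILMN_1257694 did not share this pattern. It read 11.81, 11.29 and 11.01 in wild type, 11.50, 12.53 and 10.81 on labelled transgenic arrays, and 10.22, 10.61 and 10.56 in the lines. The thymus groups overlapped (0.24 ± 0.45, adjusted p = 0.907), and the lines lay below both. The fall of 0.91 ± 0.26 in the lines against wild type was called (adjusted p = 0.0399) and was lost without any 1 of the 6 arrays (adjusted p = 0.0572 to 0.0995). Against labelled transgenic thymus the difference was -1.15 ± 0.44 (adjusted p = 0.113). The group difference on ILMN_2664929 was 3.45 log2 units below that on ILMN_1257694 between the thymus groups, and the arrays did not overlap. An exact two-sided permutation test of this difference between probes gave p = 0.1, the smallest that 3 arrays against 3 allow. The disagreement was known before the test, so the test cannot decide it. All 3 probes are annotated to the same RefSeq transcript. By the RefSeq gene table Cd8a and Cd8b1 are neighbouring genes on chromosome 6.

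Arpp21 did not differ between wild-type and labelled transgenic thymus on any of its 6 tested probes beyond the spread between arrays, with differences from -0.24 to 0.61 and adjusted p of 0.663 to 0.997. In the lines the result depended on the probe, and 4 of the 6 fell in at least 1 comparison with thymus. The 2 tested probes annotated to RefSeq transcripts showed the lines close to thymus apart from line 3. ILMN_1241866 read 12.67, 12.88 and 12.96 in wild type, 12.93, 13.30 and 13.11 on labelled transgenic arrays, and 10.58, 12.45 and 12.70 in lines 3, 175 and 261. ILMN_1240537 read 10.54, 10.34 and 10.68, then 10.57, 10.52 and 10.50, and 6.74, 10.06 and 11.07 in the lines. Line 3 was the lowest array on both, while line 261 lay within or above the range of wild type. Against wild type these probes differed by -0.93 ± 0.53 (adjusted p = 0.227) and -1.23 ± 1.00 (adjusted p = 0.379), and without line 3 by -0.26 and 0.04.

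On the 4 tested Arpp21 probes annotated to cDNA clones the mean of the lines was lower than that of either thymus group. The same held for the 2 tested RefSeq-annotated probes. ILMN_1256084 read 9.0, 9.76 and 10.25 in wild type, 10.04, 9.24 and 9.82 on labelled transgenic arrays, and 4.43, 5.93 and 5.41 in the lines, where line 3 was not detected. It fell by 4.41 ± 0.46 against wild type (adjusted p = 0.000822) and by 4.44 ± 0.43 against labelled transgenic thymus (adjusted p = 0.00204), calls that held in each of 12 other settings (highest adjusted p = 0.00802 and 0.0169). ILMN_1247030 read 10.22, 10.03 and 10.36, then 10.17, 10.01 and 10.38, and 5.03, 6.99 and 8.05 in the lines. Line 3 was again lowest and not detected, and line 261 was the highest of the lines. It fell by 3.52 ± 0.69 against wild type (adjusted p = 0.0111, or 0.0508 without wild-type array 3) and by 3.50 ± 0.70 against labelled transgenic thymus (adjusted p = 0.0212, lost without any 1 labelled transgenic array or line 175 and with no detection filter, at adjusted p = 0.0511 to 0.0746).

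The other pair of clone probes varied within wild type. ILMN_1231233 read 5.71, 7.61 and 8.11 in wild type, 7.80, 7.31 and 8.15 on labelled transgenic arrays, and 4.54, 5.59 and 5.62 in the lines. ILMN_2555562 read 5.29, 7.43 and 7.25, then 6.77, 5.52 and 6.95, and was not detected in any line (4.35, 4.61 and 5.03). Wild-type array 1 stood lowest of its group on both. ILMN_1231233 fell by 2.50 ± 0.38 against labelled transgenic thymus (adjusted p = 0.0092), and its difference of -1.89 ± 0.63 from wild type was called only without wild-type array 1 among the left-out arrays (adjusted p = 0.0639, or 0.0122 without it). ILMN_2555562 fell at least 2.51-fold against wild type (adjusted p = 0.0384) and at least 2.12-fold against labelled transgenic thymus (adjusted p = 0.0354), the bound being set by the lowest detected signal on each line array. The first of these calls was lost without wild-type array 2 or 3 or any 1 line (adjusted p = 0.0557 to 0.134) and the second without labelled transgenic array 1 or 3 or any 1 line (0.0636 to 0.113). Both were also lost without background correction, with an offset of 50 and with no detection filter, and in all the first was lost in 8 and the second in 10 of 12 settings.

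The RefSeq-annotated and clone-annotated probes were set apart after their values were seen, so tests between them cannot decide whether they differ. The fall in the lines against wild type on ILMN_1256084 was 3.49 log2 units larger than on ILMN_1241866, without overlap of the arrays (exact two-sided permutation p = 0.1, the smallest that 3 against 3 allow). This was the largest of the 8 differences between a RefSeq and a clone probe in that comparison. With ILMN_1247030 and ILMN_1256084 the 4 differences were 2.28 to 3.49 (each exact p = 0.1). With ILMN_1231233 they were 0.97 and 0.66 (exact p = 0.3 and 0.7) and with ILMN_2555562 1.07 and 0.76 (exact p = 0.2 and 0.7), so the split by annotation did not separate all probes. Of the 3 untested Arpp21 probes, ILMN_2607858 and ILMN_2685183 were not detected on any array. ILMN_2606443, also annotated to a cDNA clone, went the other way: it was not detected on the thymus arrays (4.41 to 4.80) or in line 3 (4.74) and was detected in lines 175 and 261 (6.20 and 6.62).

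**Figure D3:**
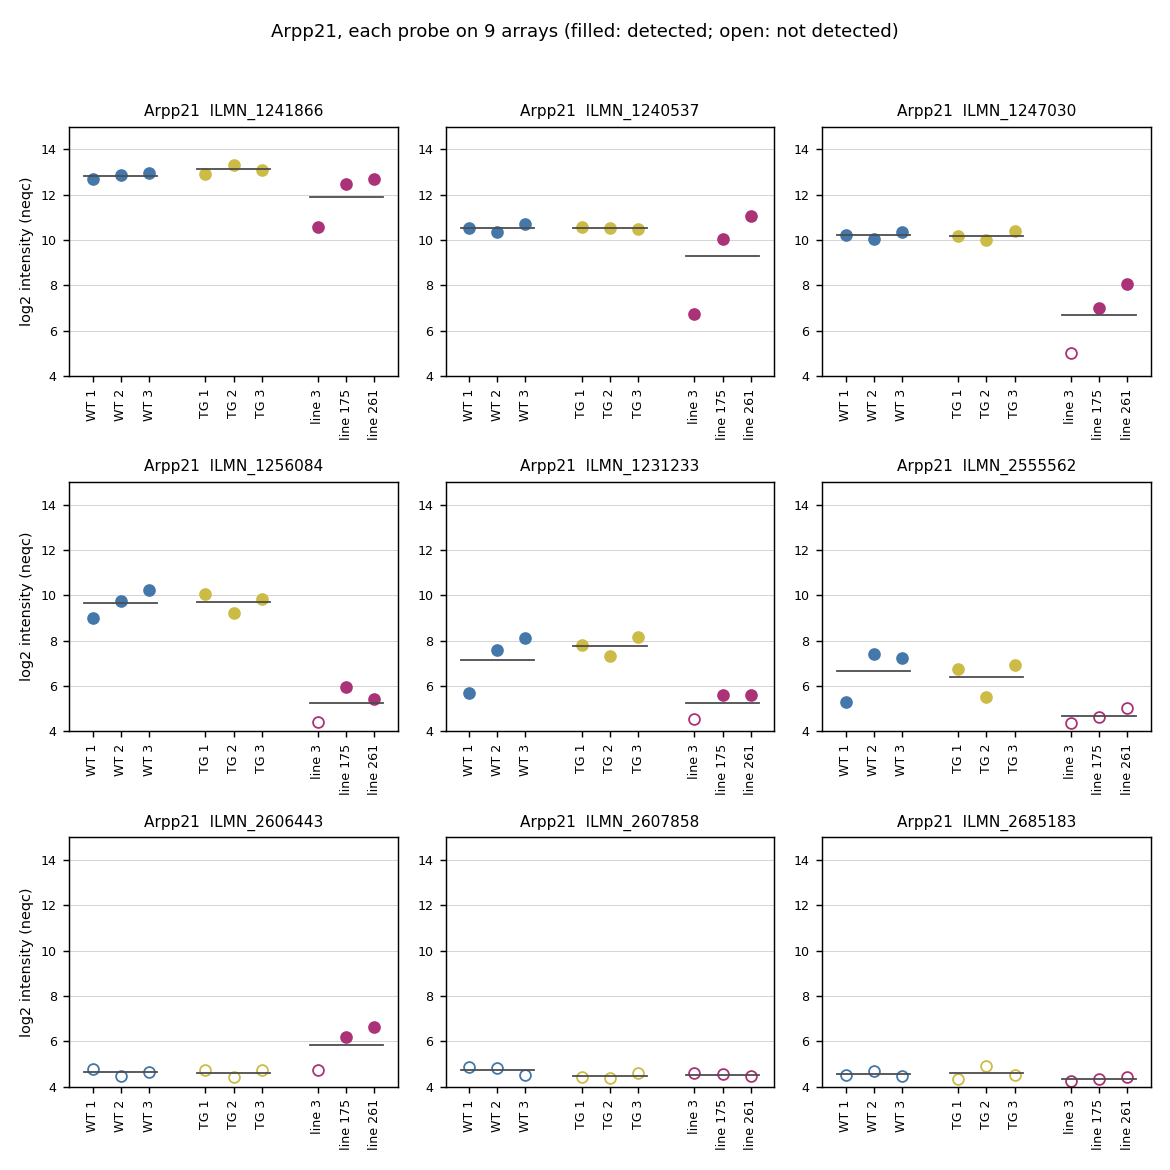
Log2 intensity (vertical axis) of the 9 Arpp21 probes on each array (WT, wild type; TG, labelled transgenic; cell lines by number), with filled points for detected readings and bars for group means. Line 3 is the lowest line on all 6 tested probes, and lines 175 and 261 lie near thymus on the probes ILMN_1241866 and ILMN_1240537 but below it on ILMN_1247030 and ILMN_1256084.

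Aqp11 was steady in thymus and was not detected in line 3. Probe ILMN_1225901 read 11.83, 11.71 and 11.67 in wild type, 12.02, 12.35 and 11.92 on labelled transgenic arrays, and 4.92, 11.21 and 12.09 in lines 3, 175 and 261. Line 3 lay 6.29 log2 units below line 175, while line 261 lay above all wild-type arrays. The 3 labelled transgenic arrays lay above the wild-type arrays, by 0.36 ± 0.19, which was not called (adjusted p = 0.515). The second probe, ILMN_2670407, read 7.14, 7.14 and 7.38, then 7.14, 7.38 and 7.77, and 4.44, 5.94 and 6.62 in the lines. The order of the lines was the same on both probes. Neither probe was called between the lines and wild type, at -2.33 ± 1.70 (adjusted p = 0.333) and -1.55 ± 0.52 (adjusted p = 0.0629). Without line 3 the first probe differed from wild type by -0.08 and the second by -0.93. Without line 261 the second differed by -2.025. Lines 3 and 261 were picked by their readings, so no p-value is given for these differences.

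Ets2 was lower on the labelled transgenic arrays and divided the lines. Its probe ILMN_2594714 read 11.18, 11.22 and 11.15 in wild type, 9.64, 9.84 and 10.38 on labelled transgenic arrays, and 9.74, 12.58 and 12.54 in lines 3, 175 and 261. The thymus groups did not overlap, line 3 lay within the labelled transgenic range, and lines 175 and 261 lay above every thymus array. Ets2 fell by 1.23 ± 0.23 in labelled transgenic thymus (adjusted p = 0.0436). This call was lost without any 1 wild-type array or labelled transgenic array 1 or 2 (adjusted p = 0.0728 to 0.195) and with the authors' log2 table, no detection filter or all 9 arrays in 1 fit (0.0558, 0.0616 and 0.603). The lines did not differ as a group, by 0.44 ± 0.72 from wild type (adjusted p = 0.672) and by 1.67 ± 0.76 from labelled transgenic thymus (adjusted p = 0.166). Without line 3 these differences were 1.38 and 2.61. Line 3 was picked by its low reading, so no p-value is given for them.

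Cd1d1 was lower in all 3 lines than on every thymus array. Its probe ILMN_2734212 read 9.67, 9.88 and 9.87 in wild type, 10.16, 10.39 and 10.12 on labelled transgenic arrays, and 8.93, 8.11 and 9.03 in the lines. The 3 groups did not overlap, with labelled transgenic thymus highest and line 175 lowest. The difference between the thymus groups was 0.42 ± 0.18 and was not called (adjusted p = 0.385). Cd1d1 fell in the lines by 1.11 ± 0.28 against wild type (adjusted p = 0.0266) and by 1.53 ± 0.30 against labelled transgenic thymus (adjusted p = 0.0201). The first call was lost without any 1 wild-type array (adjusted p = 0.056 to 0.0962) and the second without labelled transgenic array 1 or 3 (0.0675 and 0.0511). Its near copy Cd1d2, a pseudogene in the RefSeq table, has its own probe, which was not detected on any array, and cross-reaction of the Cd1d1 probe was not tested.

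Cd24a was near background throughout. Probe ILMN_1237868 read 5.34, 6.17 and 6.07 in wild type, 5.64, 6.49 and 6.16 on labelled transgenic arrays, all detected, and 4.99, 4.99 and 4.72 in the lines, all undetected. Cd24a fell at least 1.45-fold against wild type (adjusted p = 0.0367) and at least 1.71-fold against labelled transgenic thymus (adjusted p = 0.0328). The first call was lost without wild-type array 2 or 3 or line 175 or 261 (adjusted p = 0.0694 to 0.131), and the second without labelled transgenic array 2 or 3 or any 1 line (0.061 to 0.0893). Without background correction the fitted differences were -0.29 and -0.38 and were not called (adjusted p = 0.0907 and 0.0834). The thymus groups differed by 0.23 ± 0.32 (adjusted p = 0.854).

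**Figure D4:**
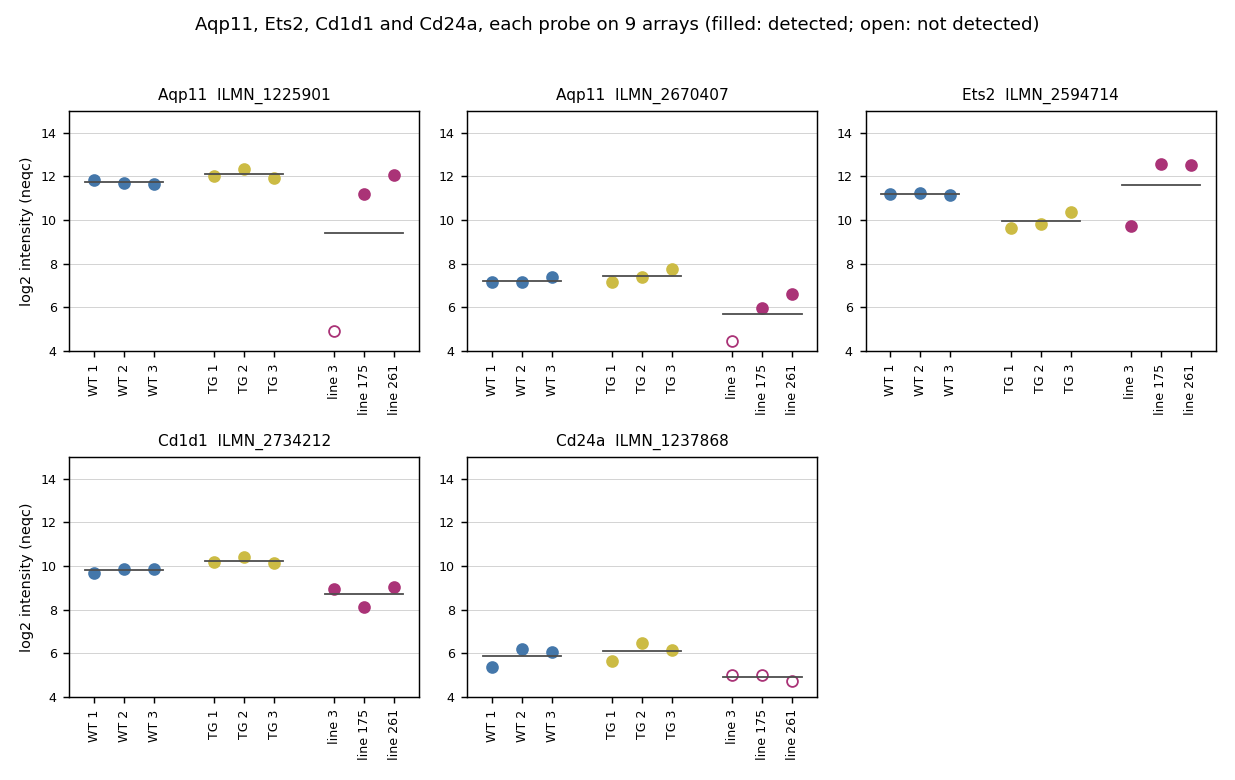
Log2 intensity (vertical axis) of the probes of Aqp11, Ets2, Cd1d1 and Cd24a on each array (WT, wild type; TG, labelled transgenic; cell lines by number), with filled points for detected readings and bars for group means. Line 3 is at 4.92 and 4.44 on the Aqp11 probes and at 9.74 for Ets2, and the lines are open for Cd24a.

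Each line is 1 array, so differences among the lines have no test. Line 3 was the lowest line on 13 of the 15 tested probes, the exceptions being Cd1d1, where line 175 was lowest, and Cd24a, where line 261 was. Over all tested probes line 3 was lowest on 34.5%. The 13 probes include 6 of Arpp21, 3 of Cd8b1 and 2 of Aqp11, and probes of 1 gene are not independent. For Cd4 line 3 lay only 0.16 log2 units below line 261. Probe ILMN_2555562 of Arpp21 was not detected in any line. By at least 2 log2 units below both other lines it stood apart on 3 probes, ILMN_1225901 of Aqp11, ILMN_1240537 of Arpp21 and that of Ets2, where 1.09% of all tested probes did so. Line 3 also differed from the others on a probe of the Y-linked gene Eif2s3y (ILMN_1241001), at 9.56 where lines 175 and 261 were undetected (4.36 and 4.46), and the part of this difference was not tested. Lines 175 and 261 stood below the other lines by that gap on 0 of the 15 (0.528% and 0.446% of all tested probes), and line 175 stood above both others on the Cd4 probe (0.436%). The median range among the lines was 1.87 log2 units over these probes and 0.60 over all tested probes. On the Arpp21 probe ILMN_1240537 the lines spanned 4.33 log2 units, against 0.34 among wild-type arrays and 0.07 among labelled transgenic arrays.

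**Figure D5:**
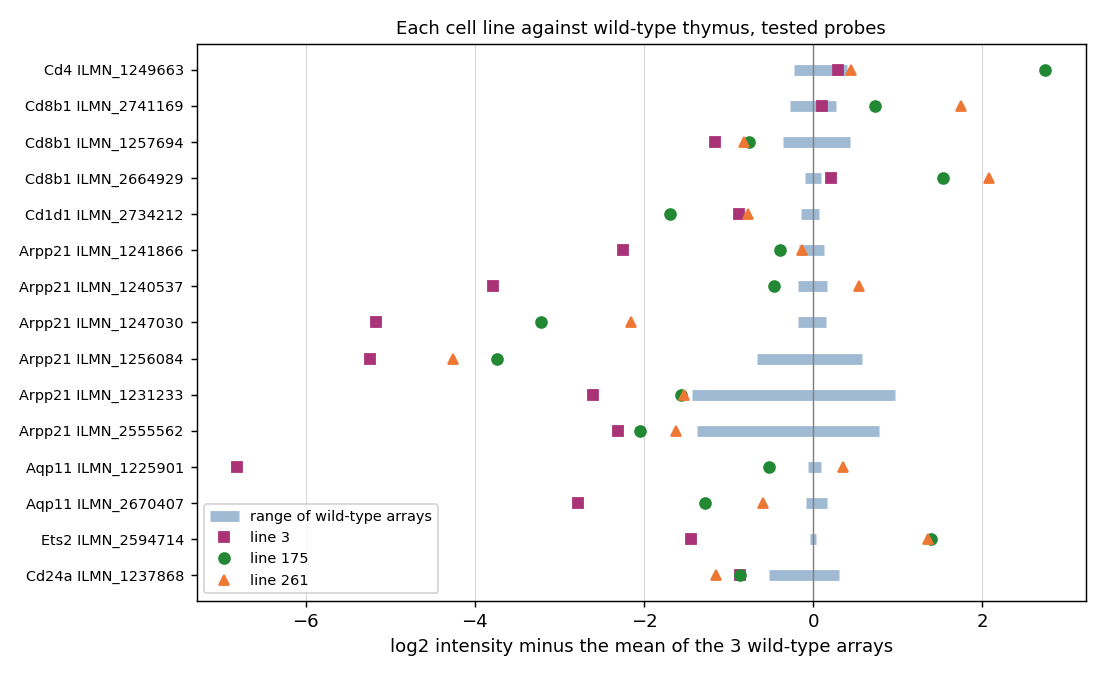
Log2 intensity of lines 3, 175 and 261 minus the mean of the 3 wild-type arrays (horizontal axis) for the 15 tested probes, with blue bars for the range of the wild-type arrays. Line 3 lies farthest to the left on 13 of the 15 probes, and lines 175 and 261 lie on the right for Ets2 and for 2 probes of Cd8b1.

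Other genes of the double-positive stage were read by the tested probe with the highest mean. Of 11 tested, 1 rose and 1 fell on labelled transgenic arrays, beside 1.35% and 1.45% of all tested probes. Here and for the other lists the share is over all tested probes, while a list holds 1 probe per gene. In the lines 1 fell against wild type and 2 fell against labelled transgenic thymus, beside 13.9% and 8.96%. In the same order the medians were 0.28, -0.79 and -0.53, against 0.00, 0.08 and 0.06 over all genes. The recombinase gene Rag1 read 10.54, 10.90 and 10.73 in wild type, 8.95, 9.49 and 9.10 on labelled transgenic arrays, and 4.88, 10.97 and 11.23 in the lines. It fell by 1.54 ± 0.22 in labelled transgenic thymus (adjusted p = 0.0145, lost in 5 of 13 other settings). Line 3 was not detected, as for Aqp11, and lines 175 and 261 lay above every thymus array. Slamf1, a signalling receptor of lymphocytes, rose by 2.10 ± 0.25 on the labelled transgenic arrays (adjusted p = 0.00795, lost in 3 of 13 settings). Themis, a protein needed for thymocyte selection, fell by 1.10 ± 0.32 and 1.38 ± 0.34 in the lines (adjusted p = 0.0413 and 0.0366, lost in 6 and 7 of 13 settings), and Slamf6 by 1.67 ± 0.43 against labelled transgenic thymus (adjusted p = 0.0413, lost in 7 of 13).

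Among 17 tested regulators of the coreceptor genes, 0 were called between the thymus groups, beside 2.81% of all tested probes. In the lines 5 fell against wild type and 4 against labelled transgenic thymus, beside 13.9% and 8.96%, and 0 rose. The medians were 0.05, -0.66 and -0.71. Myb, a transcription factor of progenitors and thymocytes, fell by 1.40 ± 0.25 and 2.45 ± 0.32 (adjusted p = 0.00843 and 0.00586). Bcl11b, which secures T lineage identity, fell by 1.26 ± 0.22 and 1.05 ± 0.26 (adjusted p = 0.0072 and 0.0382, the second lost in 6 of 13 settings). Runx1, which binds the Cd4 silencer, fell by 1.54 ± 0.32 and 1.75 ± 0.39 (adjusted p = 0.0145 and 0.0283, lost in 2 and 6 of 13), and its partner Cbfb by 0.72 ± 0.21 and 0.83 ± 0.22 (adjusted p = 0.0404 and 0.0479, lost in 7 and 8 of 13). Ets1 fell against wild type by 0.82 ± 0.23 (adjusted p = 0.039, lost in 7 of 13). Runx3, which silences Cd4 in CD8 cells, was not detected on any array. Zbtb7b, which directs the CD4 lineage, was near background and differed by 0.00 ± 0.21, 0.49 ± 0.20 and 0.49 ± 0.25 in the 3 comparisons (adjusted p = 0.998, 0.101 and 0.215).

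Of 13 tested genes of the T cell receptor complex and its signalling, 0 were called in thymus, beside 2.81% of all tested probes. In the lines 6 fell against wild type and 5 against labelled transgenic thymus, beside 13.9% and 8.96%, and 0 rose. The medians of the comparisons were 0.03, -0.91 and -0.73. Csk, the kinase that restrains LCK, fell by 1.13 ± 0.21 and 0.99 ± 0.25 (adjusted p = 0.00977 and 0.0411, the second lost in 6 of 13 settings). Cd3e, a chain of the receptor complex, fell by 0.85 ± 0.18 and 0.88 ± 0.21 (adjusted p = 0.0147 and 0.034, lost in 3 and 7 of 13). Of 13 tested genes of the preceding, double-negative stage, 2 rose and 3 fell in labelled transgenic thymus (median 0.16), beside 1.35% and 1.45% of all tested probes. The transcription factor genes Hhex and Lyl1 rose by 3.50 ± 0.25 and 3.60 ± 0.44 (adjusted p = 0.0014 and 0.00864, lost in 0 and 4 of 13 settings), and Ptcra, Cd44 and Bcl11a fell by 2.43, 1.34 and 2.43 log2 units (adjusted p = 0.0294, 0.0355 and 0.0397, lost in 7, 8 and 8 of 13). In the lines 5 of 13 fell in each comparison (medians -1.84 and -2.10), beside 13.9% and 8.96% of all tested probes. The receptor gene Kit read 10.29, 9.32 and 9.60 in wild type, 11.74, 12.84 and 10.49 on labelled transgenic arrays, and was not detected in any line, at least 21.3-fold below wild type (adjusted p = 3.1e-05). Il2ra, which marks the later double-negative cells, fell by 4.35 ± 0.52 against wild type (adjusted p = 0.00151). Genes of mature single-positive cells fell in 8 of 10 cases in the lines against wild type, beside 13.9% of all tested probes. Against labelled transgenic thymus 5 of 10 fell in the lines, beside 8.96%, and between the thymus groups 0 of 10 fell, beside 1.45%. In that order the medians were -3.07, -3.08 and -0.20.

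The genes whose profile over the 9 arrays was most like that of each probe were found by the root mean square difference between profiles, each centred on its own mean. For Aqp11 (ILMN_1225901, whose own profile has a root mean square of 2.20 log2 units) they were Notch1 at 0.45, Hivep3 at 0.52 and Dntt at 0.63. Dntt read 4.72, 10.83 and 10.56 in lines 3, 175 and 261. For Ets2 (own value 1.06) they were Bcl6 at 0.35, Mfhas1 at 0.36 and Rag2 at 0.38. For Cd8b1 on ILMN_2664929 (own value 1.94) they were Nsg2 at 0.56, Bmpr2 at 0.74 and Ctnnbip1 at 0.79, while for ILMN_1257694 (own value 0.68) they were Ip6k1, Espnl and Dync1h1 at 0.17 to 0.18. The 2 concordant Cd8b1 probes differed from each other by 0.51, and each from ILMN_1257694 by 2.06 or more. For Arpp21 on ILMN_1247030 (own value 1.81) the nearest were Rtl6 at 0.20, Bin1 at 0.21 and Zyx at 0.37, and on ILMN_1240537 (own value 1.22) Plxdc1 at 0.34, Itpr2 at 0.36 and Klhl3 at 0.44. For Cd4 (own value 0.86) they were Hpse, Cltb and Trp53inp2 at 0.29 to 0.36, for Cd1d1 (own value 0.69) Nckap1l, Cdk19 and Myh9 at 0.15 to 0.18, and for Cd24a (own value 0.60) Sh3bgrl, Oxr1 and Exoc5 at 0.13 to 0.19. These are descriptions of 9 arrays in 3 groups.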

How the data were processed

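Per the file headers, the deposited table without normalization holds 45281 probes, and for each array (9 in all) a column of intensity and one of detection p-value. The log2 intensities of the table deposited as normalized match the series' value table (largest difference 0). The submitters' processing notes name BeadStudio and limma, with neither versions nor settings. From about 300 ng of RNA per array, per the labels' protocols, intensities were read as unscaled and not background-subtracted. They were processed with neqc (offset 16) in limma 3.58.1 under R 4.3.3, correlated with the authors' log2 values at r = 0.999 per array, and had median differences of -0.10. Probes detected (p-value under 0.05) on at least 3 arrays were kept, 19490 in all. Each comparison was fitted on its own 6 arrays with lmFit and eBayes, two-sided and without covariates, and adjusted by Benjamini-Hochberg over the 19490 probes. Only the fit of labelled transgenic against wild-type thymus was checked on simulated data, with spreads from the wild-type arrays in both groups. The comparisons with the lines were not simulated. A fold written as at least is the brighter group's mean over the higher, per array, of the lowest detected signal and the dim probe's own.

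Symbols came from the platform annotation, and all 21 probes matched the RefSeq gene table by Entrez identifier. Lists used the kept probe with the highest mean per gene, over 10072 genes. The genes, the 5 pathway and 8 marker lists and the tests were chosen with earlier results of these data known. Every probe of the 8 genes is reported. Of each list up to 4 called genes per comparison could be named, with Rag1, Rag2, Runx1, Runx3, Zbtb7b, Lck, Kit, Il2ra, Ptcra, Lmo2 and the 3 nearest profiles per probe, and not all are. Xist, Eif2s3y, Cd1d2, Satb1, Ccr9, Bcl2l1, Bcl11a and the untested marker genes were added after their values were seen. Shared replicate numbers did not pair the arrays: deviations of same-numbered thymus arrays correlated at -0.21, -0.20 and 0.21. No slide or scan information was used, and no build is stated for the array design in the labels.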

Additional observations from a re-analysis of the deposited data

How the results depend on the processing

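Each comparison was refitted under 7 other settings and without each of its 6 arrays, and no called difference of the 8 genes changed direction. The replicate number as a block gave 191, 3510 and 1384 called probes over the array for labelled transgenic against wild-type thymus, lines against wild type and lines against labelled transgenic thymus (main counts 547, 5376 and 3181), and 1, 4 and 5 called probes of the 8 genes (main counts 3, 6 and 8). Numbers did not pair the arrays, so a call lost under the block is no sign of a weaker effect. With 1 probe per gene, fewer features were tested, and 2469 and 1579 genes were called in the lines, 2 and 3 of them from the 8 genes. With no detection filter 3 probes of the 8 genes were called between lines and wild type, and with all 9 arrays in 1 fit 5311 probes were called between lines and labelled transgenic thymus; the cause was not tested. Leaving out 1 array gave 120 to 657, 2505 to 5906 and 1141 to 2460 called probes, and 1 to 3, 1 to 8 and 4 to 7 of the 8 genes' probes. Low signal limits Cd4, Cd8a and Cd24a, which lie at or near background.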
